A study of Mus musculus with 16 samples.

Results

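The promoters of Cdyl2, Tafa5, Nphp4, Daam2, Ctnnd2 and Pdzrn4 were among the autosomal promoters with the strongest loss of H2AK119ub1 when endosteal mesenchymal stromal cells without Bap1 were compared with control cells. They are 6 of 3925 genes with a 10 kb window of ChIP-seq counts (chromatin immunoprecipitation followed by sequencing), and they were chosen by their H2AK119ub1 change itself. Cells of both genotypes came from C57BL/6J mice carrying the floxed allele: controls were Bap1fl/fl (WT), and the conditional knockout was Prx1-cre;Bap1fl/fl (cKO), in which Cre is driven by the Prx1 promoter of limb mesenchyme. Neither age nor sex of the mice was stated. There were 2 libraries for each genotype and each of 4 histone marks, 16 in all. Whether replicate libraries stem from different animals is not stated, nor whether the 4 marks were precipitated from the same chromatin. The p-values therefore set the difference between genotypes against the spread of these libraries, which may be technical.

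H2AK119ub1 is ubiquitin on a lysine near the end of histone H2A. Polycomb repressive complex 1 places it and BAP1 removes it. H3K27me3, placed by Polycomb repressive complex 2, often lies over the same promoters, and both complexes are drawn to stretches rich in unmethylated CG dinucleotides. H3K4me3 and H3K27ac, in contrast, mark promoters in use. Libraries are named here by title, and for those titled H3K4me3 and H3K27ac the antibody field names the other of these antibodies. The 6 genes share no pathway. Cdyl2 codes for a chromodomain protein that binds methylated histone H3, Tafa5 for a small secreted chemokine-like protein, Nphp4 for a protein of the ciliary transition zone, Daam2 for a formin that links Wnt signalling to actin, Ctnnd2 for delta-catenin of cell junctions, and Pdzrn4 for a protein with PDZ and RING domains.

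The windows lie on chromosomes 8, 15, 4 and 17 of GRCm38, 3 of them on chromosome 15. Cdyl2 (ENSMUSG00000031758) starts on the minus strand at position 116732991 of chromosome 8, and Daam2 (ENSMUSG00000040260) on the minus strand at position 49564337 of chromosome 17. The other starts are on the plus strand. Nphp4 (ENSMUSG00000039577) starts at 152476706 of chromosome 4. On chromosome 15, Ctnnd2 (ENSMUSG00000022240) starts at 30172593, Tafa5 (ENSMUSG00000054863) at 87544299 and Pdzrn4 (ENSMUSG00000036218) at 92396881. All 6 are protein-coding genes, and none shares its central 4 kb with another gene of the deposited file. RefSeq does place other starts in 3 of the windows. Kcnab2, a potassium channel subunit gene, starts on the opposite strand 843 bp into Nphp4, Gm35471 on the opposite strand 326 bp before Tafa5, and Gm31953 577 bp into Ctnnd2. Reads of such pairs cannot be told apart. The deposited file marks Cdyl2, Tafa5, Nphp4 and Daam2 DOWN and Ctnnd2 and Pdzrn4 UP, but which contrast these marks refer to is not stated.

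The annotated starts of the promoters differ widely in nearby CG dinucleotides, a property that the choice did not use. RefSeq's promoter table (GRCm38.p6, 250 bases before to 50 after a start) matched 5 of the 6 by symbol, all but Cdyl2, and 2566 promoters of the deposited windows in all. The richest and the poorest of the 5 are shown, followed by 2 of the 3 annotated Nphp4 starts, the first and that 1032 bp inside it. The last lies 1436 bp inside the first. Sequences run 5′ to 3′ on the gene's strand, with each CG in capitals.
Tafa5 (chr15:87544049-87544348, plus strand): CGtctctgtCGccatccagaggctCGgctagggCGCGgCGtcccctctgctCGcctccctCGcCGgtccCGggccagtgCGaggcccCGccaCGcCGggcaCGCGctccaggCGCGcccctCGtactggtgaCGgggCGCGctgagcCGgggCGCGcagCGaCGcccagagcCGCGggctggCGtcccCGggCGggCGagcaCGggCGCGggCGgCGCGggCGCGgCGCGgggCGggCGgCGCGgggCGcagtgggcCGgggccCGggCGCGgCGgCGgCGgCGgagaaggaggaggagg
Pdzrn4 (chr15:92396560-92396859, plus strand): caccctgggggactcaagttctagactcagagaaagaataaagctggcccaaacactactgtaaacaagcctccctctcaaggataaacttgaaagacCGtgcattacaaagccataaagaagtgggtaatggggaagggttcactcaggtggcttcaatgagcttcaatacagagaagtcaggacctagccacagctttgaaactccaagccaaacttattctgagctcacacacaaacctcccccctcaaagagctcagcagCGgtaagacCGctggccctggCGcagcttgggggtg
Nphp4, first start (chr4:152476456-152476755, plus strand): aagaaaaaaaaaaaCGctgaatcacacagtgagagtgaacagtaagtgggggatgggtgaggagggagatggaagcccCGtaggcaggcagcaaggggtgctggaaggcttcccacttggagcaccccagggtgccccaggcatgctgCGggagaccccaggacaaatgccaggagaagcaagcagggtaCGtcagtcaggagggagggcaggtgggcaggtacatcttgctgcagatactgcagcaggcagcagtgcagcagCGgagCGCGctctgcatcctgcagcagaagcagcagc
Nphp4, inner start (chr4:152477488-152477787, plus strand): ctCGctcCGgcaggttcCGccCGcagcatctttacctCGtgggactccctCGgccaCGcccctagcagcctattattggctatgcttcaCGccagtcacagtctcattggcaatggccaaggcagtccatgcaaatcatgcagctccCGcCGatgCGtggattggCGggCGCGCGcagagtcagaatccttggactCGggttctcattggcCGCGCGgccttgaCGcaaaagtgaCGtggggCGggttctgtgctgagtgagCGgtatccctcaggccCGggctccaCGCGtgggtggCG

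The Tafa5 promoter holds 56 CG in 300 bases, more than 99.5% of the promoters matched to windows, whose median is 20. Pdzrn4 holds 4, more than 6.08% of them. The first Nphp4 start holds 7, the start 1032 bp further in holds 27, and the last holds 18. Ctnnd2 has 28 and Daam2 15. The GC box GGGCGG, searched on both strands with overlapping matches counted, occurs 4 times at Tafa5, 2 times at Daam2, once at Ctnnd2 and not in the printed 300 bases of Pdzrn4 or of the first Nphp4 start. Of all 2566 matched promoters, 65.3% hold it. Stretches rich and poor in CG thus both lie at annotated starts of these promoters. The poor ones are those of Pdzrn4 and of the first Nphp4 start, whose inner starts hold more. The stretch of Pdzrn4 ends at 92396859, before the start of 92396881 used for its window, so it covers only sequence upstream of that start. That of Ctnnd2 also ends before its window's start.

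Promoter values below are CPM: counts in the 4 kb around the start, per 1e6 counts of all autosomal windows, scaled by TMM factors. Log2 changes of cKO over WT are from edgeR's quasi-likelihood fit over all promoters, with the SE. Total counts per library ran from 1283020 to 10101047. A read is counted in about 3 neighbouring bins, so reads are also given from 1 bin in 3. The 2 libraries of a group differed by more than sampling noise in every group (chi-square per degree of freedom 2.00 to 3.60). The H2AK119ub1 calls depend on both cKO libraries. Of 3889 promoters, 651 were higher and 636 lower in cKO, and without cKO replicate 1 these counts were 4 and 19, while without cKO replicate 2 they were 120 and 121. Of 14 markers of mesenchymal stroma, 9 had windows, among them Twist2 with 530 ± 6.27 and Pdgfrb with 543 ± 37.6 CPM of H3K4me3 in WT (mean ± SD, n = 2). The stromal marker Thy1 had 17.3 ± 4.67. In cKO these were 329, 114 and 13.7 CPM. The 9 markers summed to 3279 and 3028 CPM of H3K4me3 in the WT libraries and to 1560 and 1509 in the cKO libraries, and 8 of them fell (edgeR). In H3K27ac they summed to 2329 and 2090 in WT and to 846 and 842 in cKO, and 7 fell. Ctsk, the only 1 of 3 osteoclast markers with a window, had 119.2 ± 12.3 CPM of H3K4me3 in WT and 13.4 in cKO, and fell in both marks. Of 8 blood and 6 endothelial markers none had a window, so these cells could not be checked for.

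H2AK119ub1 lay above the window median of 107.6 CPM in WT at 5 of the 6 promoters and below the lowest 10% limit of 58.7 CPM in cKO at 5. These values chose the promoters, so they are given as a description, with no test. Pdzrn4 had 192 and 192.1 CPM in the WT libraries and 72.9 and 68.3 in the cKO libraries, and its replicates lay closest. Cdyl2 had 187 and 183 CPM in WT and 17.9 and 52.2 in cKO. Its cKO libraries lay far apart, with 14 and 51 reads, but both were far below WT. Daam2 had 143 and 178 CPM in WT and 37.5 and 55.7 in cKO. Tafa5 had 128 and 164 CPM in WT and 8.96 and 38.9 in cKO. These last 2 cKO values rest on 7 and 38 reads. Ctnnd2 had 143 and 129 CPM in WT and 30.7 and 44.5 in cKO. Nphp4, the lowest on average in both genotypes, had 122 and 92.1 CPM in WT and 19.2 and 12.6 in cKO. Both cKO libraries lay below both WT libraries at all 6, as at 32.5% of all promoters, a count the choice itself fixes. In WT the order ran from Pdzrn4 and Cdyl2 down to Nphp4. The 3 promoters between them, Daam2, Tafa5 and Ctnnd2, overlapped in their libraries.

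**Figure D1:**
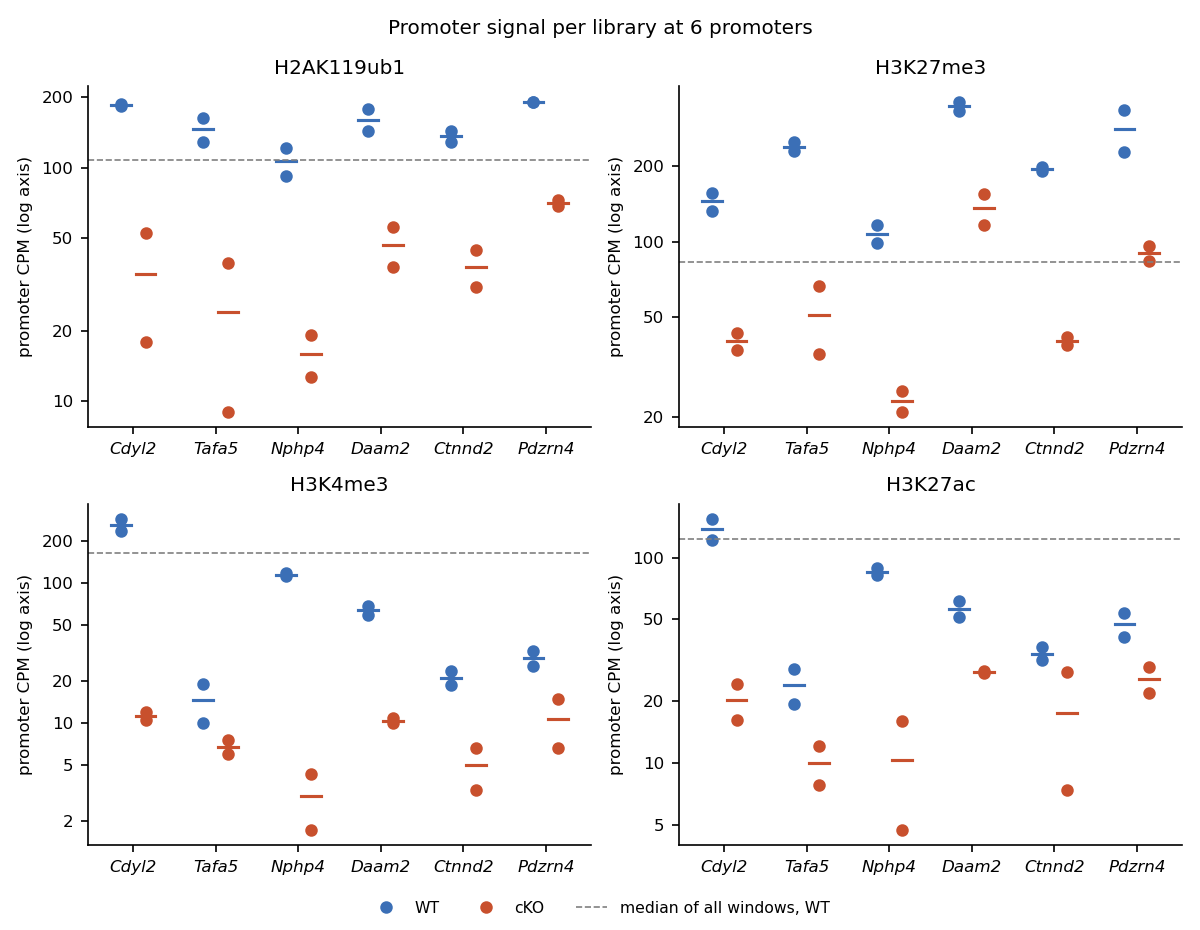
CPM in the 4 kb around each gene start (log axis) for every library, WT in blue and cKO in red, with the mean of the 2 libraries as a short line. The dashed line is the median of all windows in WT, which is 107.6 CPM for H2AK119ub1 and 164.5 CPM for H3K4me3. In every panel and at every promoter both cKO points lie below both WT points.

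The fitted H2AK119ub1 changes ran from a log2 of -2.76 ± 0.34 at Nphp4, -2.58 ± 0.29 at Tafa5 and -2.38 ± 0.24 at Cdyl2 to -1.85 ± 0.27 at Ctnnd2, -1.78 ± 0.24 at Daam2 and -1.44 ± 0.22 at Pdzrn4. The median of all promoters was 0.02. Leaving out cKO replicate 2 moved Tafa5 to -4.02 and Cdyl2 to -3.37, and leaving out cKO replicate 1 moved them to -1.91 and -1.83. By p the 6 were ranked 1 to 4, 7 and 8 among autosomal promoters with a negative H2AK119ub1 change. Galnt14, an enzyme gene of mucin-type glycosylation, ranked 5 with a change of -1.58 ± 0.22, and an unnamed window of chromosome 2 ranked 6. The named promoters just past Pdzrn4 were Cyp26b1, which clears retinoic acid, with -1.44 ± 0.22, Megf6 with -1.66 ± 0.28 and the semaphorin gene Sema6d with -1.40 ± 0.24. An unnamed window of chromosome 8 ranked 10, between Cyp26b1 and Megf6. By size of loss Pdzrn4 was only at rank 16 of the autosomes. Of the 25 lowest p among promoters with a negative change on all chromosomes, 13 belonged to X-linked promoters.

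The lower H2AK119ub1 reached beyond the promoter in most of the windows. At Tafa5 both cKO libraries lay below both WT libraries in all 10 segments of 1 kb, at Cdyl2 and Nphp4 in 9, at Daam2 in 8, at Pdzrn4 in 7 and at Ctnnd2 in 6. In the outer 3 kb on each side, WT libraries of Tafa5 had 171 and 150.2 CPM and cKO libraries 33.7 and 58.5, a log2 difference of the means of -1.80. It was -2.18 at Nphp4, -1.23 at Cdyl2, -1.18 at Daam2, -0.81 at Ctnnd2 and -0.76 at Pdzrn4. At all 6 the outer parts differed less than the central 4 kb, by which the promoters were chosen and where the values were -2.75, -2.40, -1.78, -1.85 and -1.44 in the same order and -2.61 at Tafa5. The outer parts of all autosomal windows had a median of -0.01. The highest WT segment was the first kb inside the gene at Tafa5, Nphp4, Daam2 and Pdzrn4. It was 1 to 2 kb before the start at Cdyl2, where it had 61.2 CPM in WT and 6.13 in cKO.

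**Figure D2:**
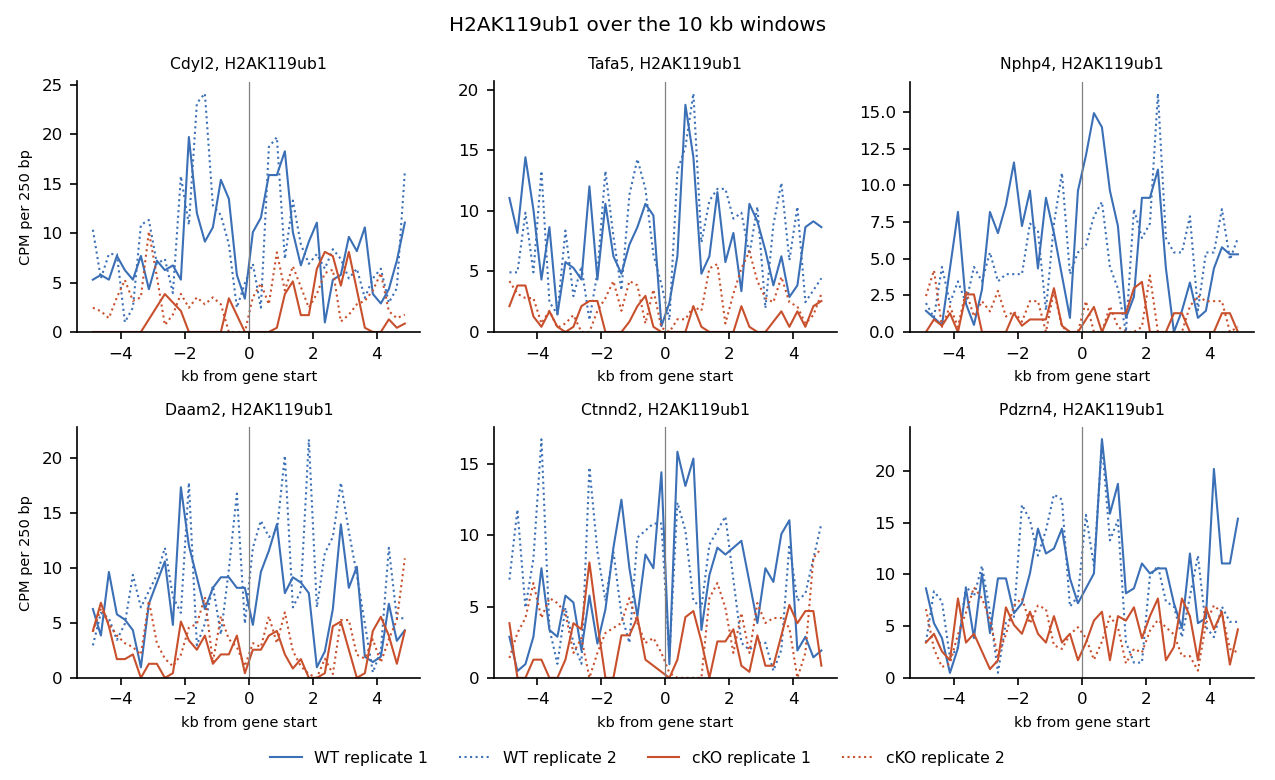
H2AK119ub1 in steps of 250 bp (CPM, each panel with its own vertical axis) against distance from the gene start in kb, in the direction of the gene, for the 2 WT (blue) and 2 cKO (red) libraries. At Tafa5 the cKO lines stay low across the whole window, while at Ctnnd2 they meet the WT lines in the outer parts, where the log2 difference of the means was -0.81.

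H3K27me3, the other Polycomb mark, fell at all 6 promoters. Its libraries were not those that ranked the promoters, but the 6 were chosen with earlier results of these data known. At 604 of 3883 promoters H3K27me3 fell, 15.6%, and among the 516 autosomal promoters with a call of lower H2AK119ub1 it fell at 233 (45.2%). Tafa5 had 249.96 and 229 CPM in WT and 35.8 and 66.4 in cKO. Ctnnd2 had 199 and 191 in WT and 41.9 and 38.6 in cKO. Both lay in the upper part of all windows in WT, above 89.7% and 86.3% of them, and in the lower part in cKO, above 14.4% and 8.00%. The log2 change was -2.23 ± 0.29 at Tafa5 (adjusted p = 1.54e-12, edgeR) and -2.27 ± 0.31 at Ctnnd2 (adjusted p = 9.06e-12). Nphp4 went from 99.1 and 117 CPM to 25.5 and 21.0, a change of -2.21 ± 0.41 (adjusted p = 1.79e-06). Cdyl2 went from 157 and 133 CPM to 37.0 and 43.4, a change of -1.85 ± 0.34 (adjusted p = 1.44e-06).

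Daam2 and Pdzrn4 kept more H3K27me3 than the others. Daam2 had the highest level, 362 and 333 CPM in WT, and 117 and 155 in cKO still exceeded 78.3% of all windows. Pdzrn4 had 335 and 227 CPM in WT and 95.9 and 84.1 in cKO, above 54.65% of windows. Their changes were -1.35 ± 0.27 (adjusted p = 6.69e-06, edgeR) and -1.64 ± 0.28 (adjusted p = 1.36e-07). The median of the 6 was -2.03, and that of all promoters 0.03. Both cKO libraries lay below both WT libraries at all 6, as at 31.4% of promoters. The 6 calls held without any 1 library and under every other setting tried. At Tafa5 the WT signal extended over the gene side of the window, from 79 CPM in the first kb to 62 in the fifth. It was lower there in both cKO libraries throughout. The outer 3 kb of Tafa5 had 286 and 293 CPM in WT and 49.8 and 44.1 in cKO. At Pdzrn4 the WT signal was highest in the first kb, 132 CPM, where cKO had 17.7.

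H3K4me3 also fell at all 6 promoters, from very different starting levels. It fell at 1240 of 3905 promoters, 31.8%, and at 34.7% of the autosomal promoters with a call of lower H2AK119ub1. In WT the highest 1 kb segment had a mean of 195 CPM at Cdyl2, 65.9 at Nphp4 and 41.1 at Daam2, but 10.9 at Pdzrn4 and 6.48 at both Tafa5 and Ctnnd2. Cdyl2 had 234 and 285 CPM in WT and 12.03 and 10.6 in cKO, a log2 change of -4.53 ± 0.17 (adjusted p = 4.92e-154, edgeR). In WT 86.5% of the signal of its window lay within 1 kb of the start, and in cKO 24.96%. The first kb of the gene had 195 CPM in WT and 4.29 in cKO. Nphp4 had 111 and 118.6 CPM in WT and 1.74 and 4.32 in cKO, a change of -5.15 ± 0.26 (adjusted p = 9.69e-82). These cKO values rest on 4 and 14 reads, against 231 and 311 in WT. Its peak stood 1 to 2 kb inside the gene, where the inner Nphp4 starts are annotated and just past the start of Kcnab2, with 65.9 CPM in WT and 1.33 in cKO. Daam2 had 69.1 and 59.3 CPM in WT and 10.9 and 9.97 in cKO, a change of -2.62 ± 0.28 (adjusted p = 5.96e-20).

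At Ctnnd2, Pdzrn4 and Tafa5 H3K4me3 was low already in WT. Ctnnd2 had 18.8 and 23.5 CPM in WT and 3.32 and 6.68 in cKO, a change of -2.05 ± 0.45 (adjusted p = 9.08e-06, edgeR). Pdzrn4 had 25.6 and 32.7 in WT and 6.65 and 14.8 in cKO, a change of -1.42 ± 0.36 (adjusted p = 0.000138). Tafa5 had 9.99 and 19.2 in WT and 6.01 and 7.61 in cKO, a change of -1.10 ± 0.46 (adjusted p = 0.0249). Its promoter held 21 and 53 reads in WT and 12 and 25 in cKO, and its WT mean exceeded that of 8.36% of windows. Their WT means lie under 45.9 CPM, the limit of the 20% of promoters with the lowest H3K4me3 over all 4 libraries. By the mean over all 4 libraries, Daam2 was in this group as well. In that group the median change was -0.32 and 24.1% fell, but since the mean includes cKO, promoters can enter it by falling. In the outer parts of all autosomal windows the median was -0.41. The part of this general difference in the 3 low promoters was not tested, nor was that of the stromal and osteoclast markers that fell in H3K4me3 and H3K27ac. Both cKO libraries lay below both WT libraries at all 6, as at 40.5% of promoters. The Tafa5 call was lost without WT replicate 2 (-0.56, adjusted p = 0.410), without cKO replicate 1 (-0.95, adjusted p = 0.153) and without cKO replicate 2 (-1.28, adjusted p = 0.0602). Relative to the median H2AK119ub1 change of the 20 nearest genes, the H3K4me3 change of Tafa5 was -0.65 (adjusted p = 0.222, edgeR).

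H3K27ac fell at 5 of the 6, as at 29.1% of 3892 promoters. Among autosomal promoters with a call of lower H2AK119ub1 it fell at 26.9%. The changes were largest at Nphp4 and Cdyl2. Nphp4 had 81.9 and 88.6 CPM in WT and 4.73 and 15.9 in cKO, a log2 change of -3.04 ± 0.39 (adjusted p = 2.27e-07, edgeR). Cdyl2 had 122 and 153 in WT and 24.2 and 16.2 in cKO, a change of -2.77 ± 0.26 (adjusted p = 3.94e-11). The highest WT segment went from 93.7 to 3.62 CPM at Cdyl2 and from 57.3 to 5.38 at Nphp4. Daam2 had 51.6 and 61.2 in WT and 28.1 and 27.3 in cKO, a change of -1.03 ± 0.31 (adjusted p = 0.00530). Tafa5 had 28.5 and 19.4 in WT and 12.1 and 7.83 in cKO, a change of -1.26 ± 0.42 (adjusted p = 0.0102). Pdzrn4 had 53.7 and 41.0 in WT and 21.8 and 29.2 in cKO, a change of -0.89 ± 0.34 (adjusted p = 0.0232). Ctnnd2 did not pass the test, with 31.6 and 36.5 in WT and 7.36 and 27.8 in cKO (-0.96 ± 0.44, adjusted p = 0.0648), and its cKO libraries lay far apart. Tafa5, Ctnnd2 and Pdzrn4 had WT means under 52.6 CPM, the limit of the 20% of promoters with the lowest H3K27ac over all 4 libraries. By the mean over all 4 libraries, Nphp4 and Daam2 were in this group as well. Of that group, which promoters can enter by falling, 12.1% fell. Both cKO libraries were below both WT libraries at all 6, as at 39.6% of promoters. Relative to the median H2AK119ub1 change of the 20 nearest genes, the calls at Daam2 (adjusted p = 0.0585, edgeR), Tafa5 (0.110) and Pdzrn4 (0.168) were lost. The neighbours' own H3K27ac change was not used for this.

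**Figure D3:**
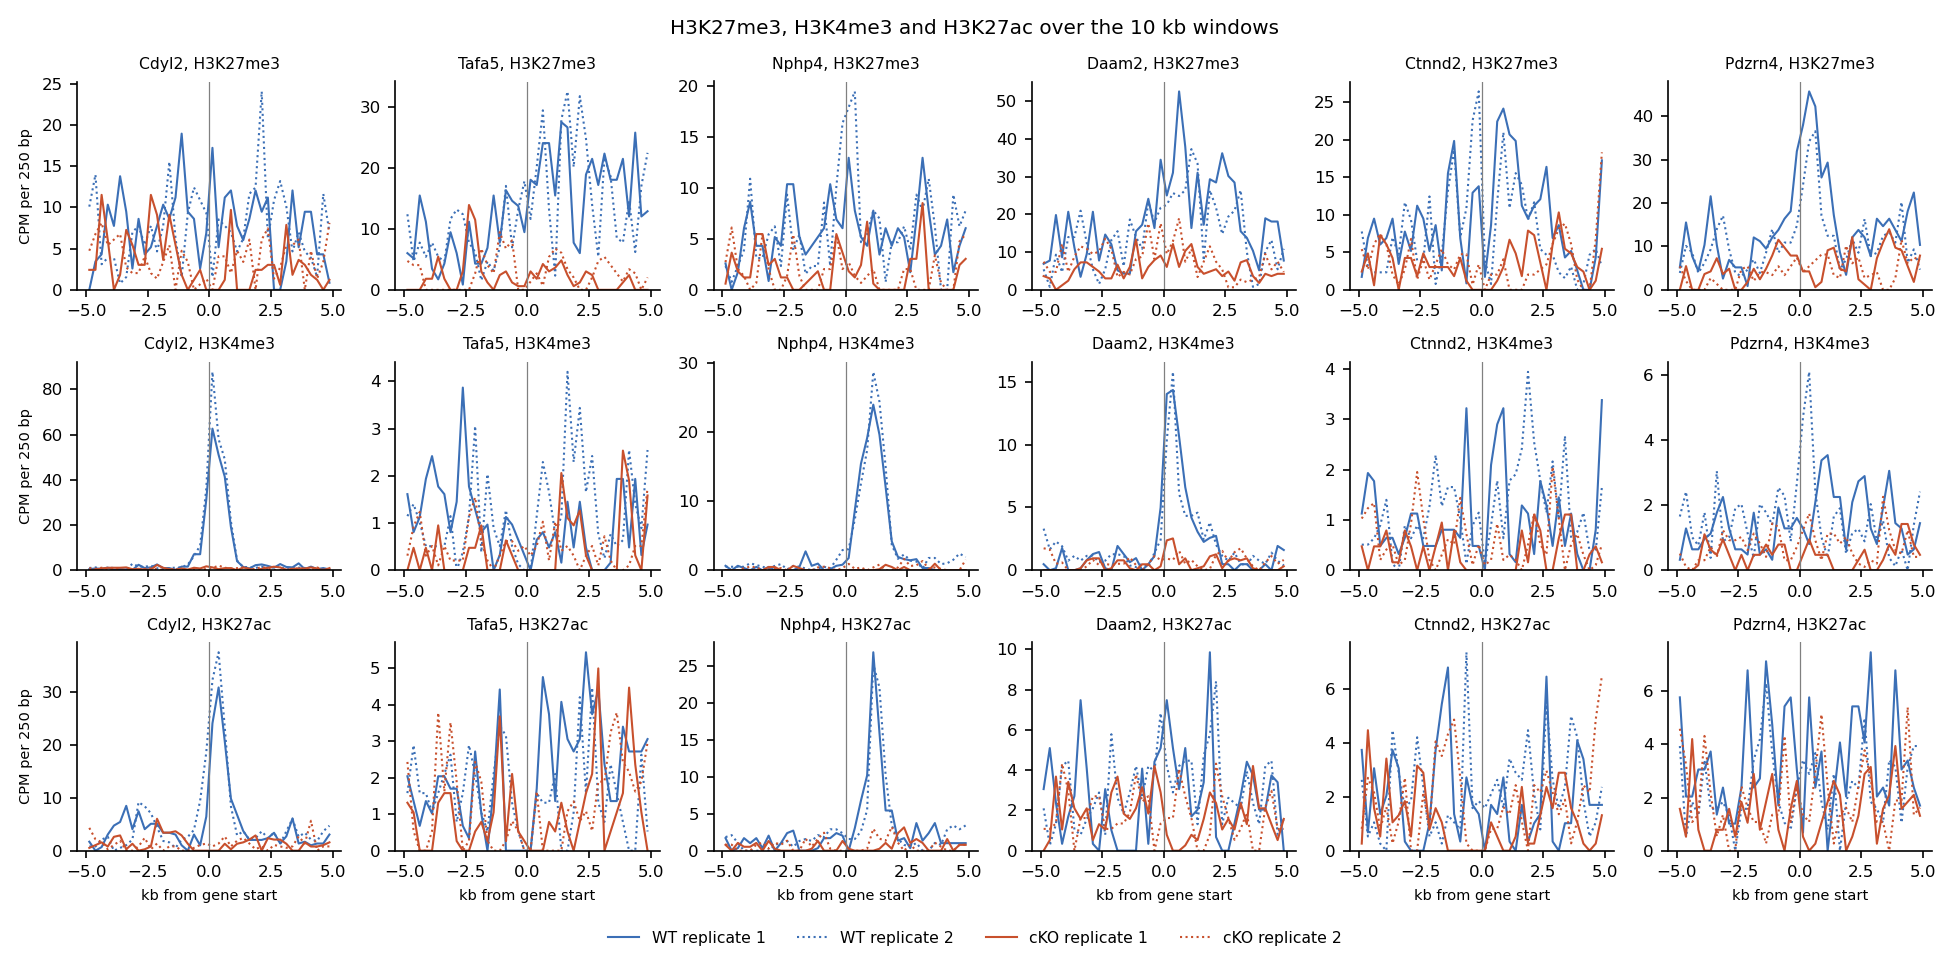
H3K27me3, H3K4me3 and H3K27ac in steps of 250 bp (CPM, each panel with its own vertical axis) against distance from the gene start in kb, for the 2 WT (blue) and 2 cKO (red) libraries. Narrow H3K4me3 peaks stand at Cdyl2, Daam2 and, 1 to 2 kb inside the gene, Nphp4 in WT, where the same 1 kb segments have 4.29, 5.07 and 1.33 CPM in cKO, while at Tafa5, Ctnnd2 and Pdzrn4 the WT mean of no 1 kb segment exceeds 10.9 CPM of H3K4me3, and the highest single library has 14.3 CPM, at Pdzrn4.

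At 5 of the 6 promoters H3K27me3, H3K4me3 and H3K27ac all fell, while over the 3875 promoters tested in every mark this was so at 54, or 1.39%. Among the 516 autosomal promoters with a call of lower H2AK119ub1 it was so at 21, or 4.07%. H3K27me3 and H3K4me3 fell together at all 6, and at 2.37% of all promoters. The exception in the first count was Ctnnd2, for H3K27ac. No test of this count was made, and the 6 were chosen with earlier results of these data known. The median changes of the 6 were -2.03 in H3K27me3, -2.34 in H3K4me3 and -1.14 in H3K27ac, beside 0.03, 0.04 and -0.0049 for all promoters. The 4 named promoters nearest in rank gave different pictures. Cyp26b1 fell in all 3 marks as well (-1.31 ± 0.28, -1.16 ± 0.43 and -0.80 ± 0.33). Galnt14 fell in H3K4me3 (-1.98 ± 0.23, adjusted p = 1.25e-16, edgeR) and H3K27ac (-1.65 ± 0.36), while its H3K27me3 was 271 ± 8.29 CPM in WT and 239.9 ± 10.6 in cKO (adjusted p = 0.677). Megf6 fell in H3K27me3 (-1.20 ± 0.26) and did not pass in H3K4me3 (-0.58) or H3K27ac (-0.17). Sema6d passed in none of the 3.

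**Figure D4:**
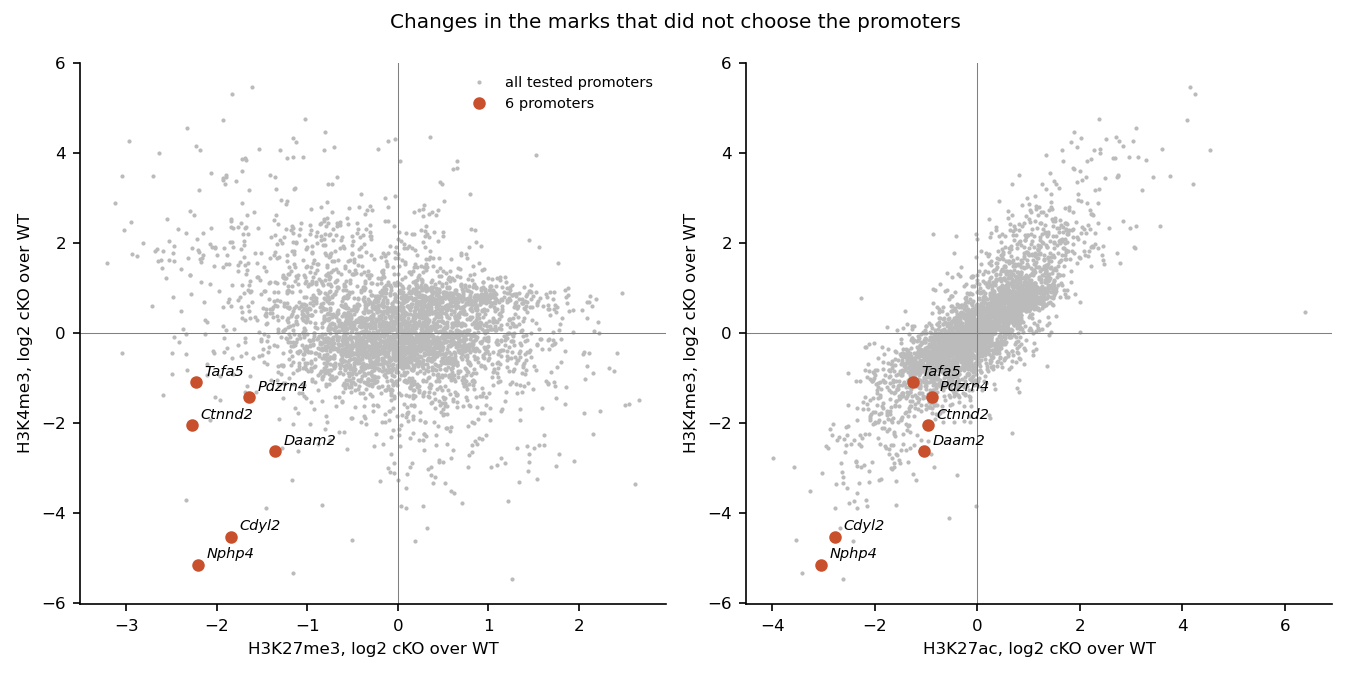
Log2 change of cKO over WT in H3K4me3 (vertical) against H3K27me3 (left) and H3K27ac (right), for all promoters tested (grey) and the 6 promoters (red). All 6 lie below 0 on every axis, with Nphp4 (-5.15 in H3K4me3) and Cdyl2 (-4.53) lowest.

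The pattern most like that of a member over the 16 libraries, by Pearson's r of log2(CPM + 1) centred on the mean of each mark, was often that of another member. Cdyl2 and Daam2 were each other's nearest (r = 0.970), and Ctnnd2 was nearest to Cyp26b1 (0.948) and Pdzrn4 (0.945). Between members r ran from 0.662 for Tafa5 and Nphp4 to 0.970. Other near patterns were those of Sfrp1, a secreted Wnt antagonist (0.965 with Cdyl2), Pcdhga5, a protocadherin (0.962 with Nphp4), Capn6 (0.954 with Nphp4), Palld, an actin-associated protein (0.967 with Daam2), B3galnt1 (0.938 with Tafa5), Boc (0.935 with Tafa5) and Parvg (0.942 with Pdzrn4). These are descriptions over libraries that share genotype and mark, and the members were picked for a common direction.

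In H2AK119ub1 the neighbours on the chromosome were lower at the median too. That each chosen window lay below its neighbours in this mark follows from how it was chosen, and the values are a description. Over the 20 nearest windows, which reached 4.44 Mb from Nphp4 and up to 11.3 Mb from Ctnnd2, the median log2 change of the whole 10 kb window ran from -0.51 around Nphp4 to -0.32 around Cdyl2. At 5 of the 6 the own window was lower than all 20 neighbours. The exception was Pdzrn4, whose neighbours include Tafa5. Own windows lay below the median of their neighbours by 0.75 at Pdzrn4 to 1.93 at Nphp4. In H3K27me3 the neighbours' medians were -0.82 to -0.26, and all 6 windows lay below them, with Tafa5 (-2.44) and Ctnnd2 (-1.25) lower than all 20. In H3K4me3 Cdyl2 (-3.38) and Nphp4 (-4.04) were lower than all 20 neighbours, whose medians were 0.05 and -0.44. In H3K27ac Tafa5 (-0.69) and Ctnnd2 (-0.50) lay at the level of their neighbours (-0.63 and -0.53). Chromosome 15 as a whole had window medians of -0.35 in H2AK119ub1, -0.38 in H3K27me3, -0.43 in H3K4me3 and -0.48 in H3K27ac. In the same order they were -0.29, -0.29, -0.33 and -0.30 on chromosome 8, and -0.15, -0.19, -0.10 and -0.13 on chromosome 17. On chromosome 4 the medians were 0.59, 0.47, 0.72 and 0.79, so Nphp4 and the median of its neighbours lay on the other side of 0. Around Nphp4 the medians of the 20 nearest windows were -0.51, -0.82, -0.44 and -0.23 in the same order. The part of such shifts in all marks, of whole chromosomes or of stretches of them, in the changes of the 6 promoters was not tested.

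**Figure D5:**
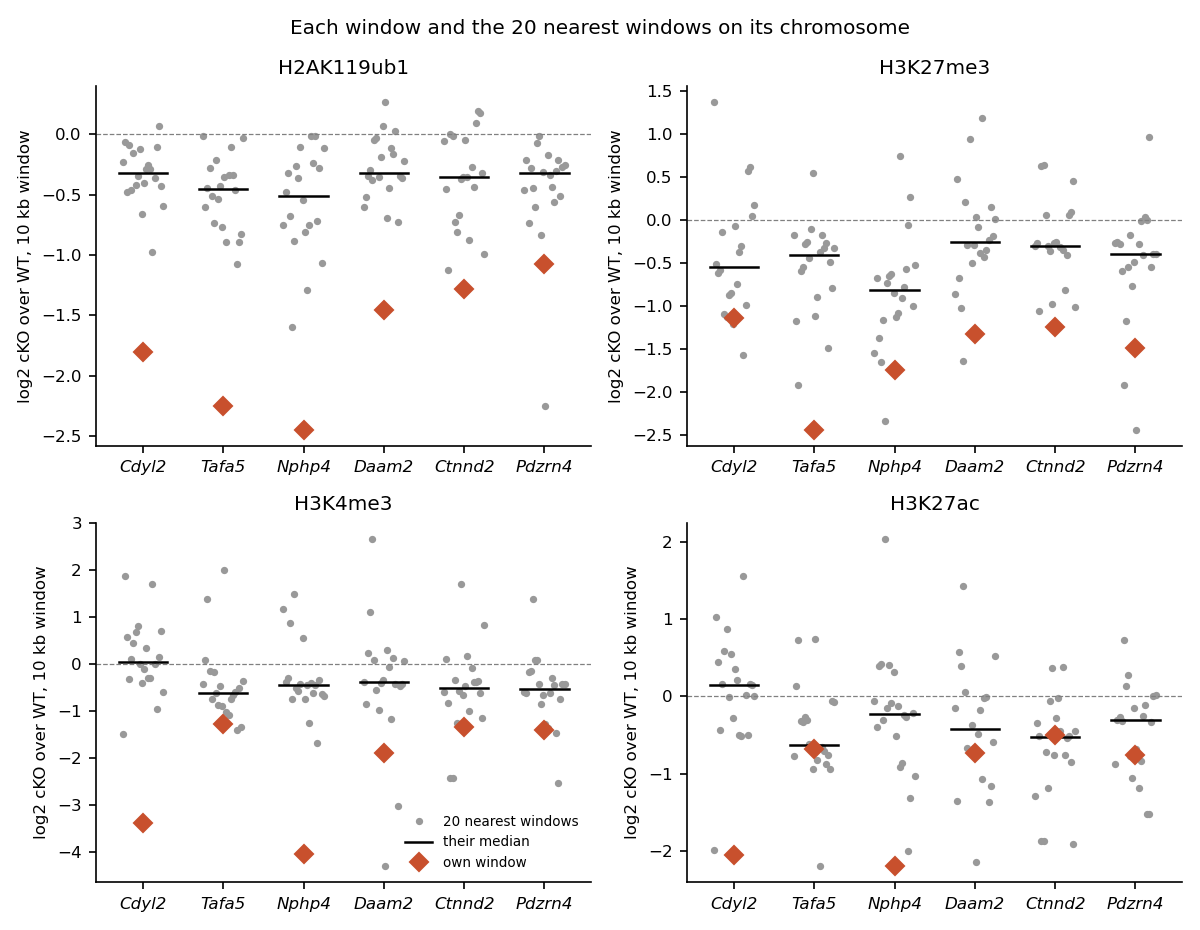
Log2 change of cKO over WT in the whole 10 kb window (vertical) of each of the 6 genes (red diamond), of the 20 nearest windows on its chromosome (grey, nearest at the left) and their median (black line). In H2AK119ub1 each diamond lies below every grey point except at Pdzrn4, while in H3K27ac those of Tafa5 and Ctnnd2 lie on the median.

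The nearest single windows, of named genes except where said, did not share the full pattern. Maf, a transcription factor gene 1026 kb from Cdyl2, rose in H3K27me3 (1.64) and fell in H3K4me3 (-1.07) and H3K27ac (-2.06), with an H2AK119ub1 change of -0.45 that did not pass. Gpr153, only 202 kb from Nphp4, fell in H2AK119ub1 (-1.01) and H3K27me3 (-1.68) but rose in H3K4me3 (adjusted p = 2.08e-17, edgeR). Smim1, 1549 kb away on the other side, fell and rose in the same marks (-0.77 in H2AK119ub1 and 1.73 in H3K4me3). In both H3K4me3 went the opposite way from Nphp4. Pim3, a kinase gene, and Gtse1, beside Tafa5, and Dap, beside Ctnnd2, had H2AK119ub1 changes of -0.01, -0.24 and 0.08 that did not pass. Otulinl, on the other side of Ctnnd2, fell by 0.85. Foxp4 (-0.43) and Rftn1 (-0.32) beside Daam2, Lrrk2 (-0.38) and Slc38a2 (-0.31) beside Pdzrn4, and Mlycd (-0.28) beside Cdyl2 did not pass either. Many of these neighbours fell in other marks, as the members did. H3K4me3 fell at Gtse1 (-0.66), Pim3 (-0.20), Dap (-0.42), Otulinl (-0.31), Rftn1 (-0.33), Lrrk2 (-0.52) and Slc38a2 (-0.35). It rose at Foxp4 (0.19) and Mlycd (0.67). H3K27ac fell at Pim3 (-0.53), Dap (-1.10), Otulinl (-0.96) and Lrrk2 (-0.91), and rose at Foxp4 (0.71) and Mlycd (0.61). H3K27me3 fell at Rftn1 (-0.80) and Mlycd (-0.97). Unnamed windows lay nearer than Slc38a2 and Mlycd. ENSMUSG00000097643, 3395 kb from Pdzrn4, fell in H2AK119ub1 (-0.54, adjusted p = 0.0491, edgeR), and ENSMUSG00000031841, 1551 kb from Cdyl2, did not pass (-0.02).

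None of the measured relatives, which cover all of the genes but Tafa5, passed the test in H2AK119ub1. Genes of the same families (chromodomain Y, TAFA, ciliary transition zone, formins, delta-catenins with plakophilins, PDZ and RING) gave 12 relatives with windows, none of them a TAFA gene. In H2AK119ub1 0 of the 12 rose and 0 fell (edgeR, median 0.07), where 16.7% of all promoters rose and 16.4% fell. At an unadjusted p under 0.05 it was 1, and DESeq2 called 0. In H3K27me3 1 rose and 1 fell (all promoters 12.4% and 15.6%), in H3K4me3 3 rose and 6 fell (40.5% and 31.8%), and in H3K27ac 3 rose and 4 fell (30.9% and 29.1%). Cdyl, the paralogue of Cdyl2, fell in H3K27me3 (-0.74 ± 0.28) and rose in H3K27ac (1.03 ± 0.26), with H2AK119ub1 of 88.2 ± 15.4 CPM in WT and 127 ± 16.4 in cKO (adjusted p = 0.0583, edgeR). The ciliary gene Invs rose in H3K4me3 (0.86 ± 0.08) and H3K27ac (1.14 ± 0.16), unlike Nphp4. Among formins, Fmnl3 fell in H3K4me3 (-0.56 ± 0.09) and H3K27ac (-0.84 ± 0.15), and Fhod1 and Fhdc1 fell in H3K4me3 by 0.21 and 0.28. Pkp2, a desmosomal relative of delta-catenin, exchanged marks: H3K27me3 rose by 1.75 ± 0.29 and H3K4me3 fell by 1.44 ± 0.11. Of the relatives of Pdzrn4, Lnx1 fell in H3K27ac (-1.02 ± 0.32) and Lnx2 rose in H3K4me3 (0.24 ± 0.07).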

How the data were processed

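Per the file headers, the authors' table holds raw read counts as whole numbers, without normalisation, for 200 bins of 50 bp per gene (10 kb, in the gene's direction). Builds and tools named in the submitters' processing notes were GRCm38, bedtools 2.30.0, SAMtools 1.9, Picard 2.25.5, Bowtie2 2.4.5 and cutadapt 1.18; their settings are unknown. Lone reads filled 3 bins in 98.1% of cases. Input libraries were not used here, so the precipitations have no background of their own. Libraries were grouped by title; for those titled H3K4me3 and H3K27ac the antibody field names the other of these antibodies.

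Symbols were given by position: a RefSeq gene start (GRCm38.p6) on the window's strand within 500 bp of its centre. This named 3390 windows (86.4%), against 3.08% at positions shifted by 20 kb. Counts of bins 61 to 140 were summed and fitted per mark over all promoters with edgeR 4.0.16 (R 4.3.3, glmQLFit, robust), library sizes from autosomal windows with TMM factors, filterByExpr with a minimum count of 10, and Benjamini-Hochberg adjusted p at or under 0.05. All 6 promoters passed the filter in every mark. "Rose" and "fell" refer to these calls. The script was tested on simulated data.

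The 6 genes and the gene lists were chosen with earlier results of these data known. Named genes are the 6, the next 4 named autosomal promoters by p with a negative H2AK119ub1 change, the nearest named window on each side, the 2 most alike promoters of each, and the relatives with windows. Comparison by level, outer parts of windows and summed markers was added after the data were seen. Alternatives were total counts, DESeq2 1.42.0, no filter, 1 kb or 5 kb to each side, 1 bin in 3, each library left out, a replicate block, all 16 libraries in 1 fit, and changes relative to the 20 nearest genes. For the last, the median window change of those genes was taken off. It was that in H3K27me3 for H2AK119ub1, and that in H2AK119ub1 for the other marks.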

Additional observations from a re-analysis of the deposited data

How the results depend on the processing

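No change of the 6 promoters turned direction in any mark under any alternative run. In H3K27me3 the 6 calls held under all of them, leaving out each library included. In H3K4me3 the calls at the 6 held except at Tafa5, with bins within 1 kb (adjusted p = 0.113, edgeR), relative to the 20 nearest genes, and without 3 of its 4 libraries, so that 5 to 6 were called with 1 library left out. In H3K27ac 5 were called, 2 relative to the 20 nearest genes, and 3 to 5 with 1 library left out. Without WT replicate 1 the calls at Tafa5 (adjusted p = 0.168) and Pdzrn4 (0.224) were lost, and without WT replicate 2 those at Daam2 (0.0891) and Pdzrn4 (0.0594). Pdzrn4 was also lost without cKO replicate 1 (0.137), Tafa5 without cKO replicate 2 (0.0998), and both with bins within 1 kb (0.186 and 0.0653). Ctnnd2 passed in H3K27ac without cKO replicate 2 (-2.17, adjusted p = 0.000108), with bins within 1 kb (-2.01, 0.0125) and with all 16 libraries in 1 fit (0.0434). With the replicate number as a block it passed too (0.00811), giving 6 calls in H3K27ac, and no other call of the 6 changed. The pairs share only a number: the differences between replicates 1 and 2 correlated across promoters between genotypes at -0.0161 in H2AK119ub1, -0.0355 in H3K27me3, 0.0685 in H3K4me3 and 0.0506 in H3K27ac. The replicate block gave 642 higher and 623 lower promoters for H2AK119ub1. For H3K27me3 it gave 453 and 568, for H3K4me3 1592 and 1256, and for H3K27ac 1224 and 1158.

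Over all promoters the H2AK119ub1 counts of 651 higher and 636 lower were 267 and 340 with bins within 1 kb. With 5 kb to each side 984 were lower. Relative to the median H3K27me3 change of the 20 nearest genes the counts were 257 and 210. With 1 library left out they ran from 4 to 564 and from 19 to 571. In H3K27me3 the 483 higher were 245 with bins within 1 kb and 778 with all 16 libraries, and 268 to 447 with 1 library left out, where the lower ran from 358 to 625. In H3K27ac the lower ran from 753, without WT replicate 1, to 1051. The cause was not tested. Total counts moved no count by over 1.5 times, but in H3K4me3 they gave 1432 higher and 1476 lower, against 1580 and 1240, and moved the median of all H3K4me3 changes from 0.04 to -0.06. With 6 nearest windows the same number of the 6 lay below their neighbours in each mark. CG content of the central 1 kb was not run, since no sequence of that stretch was used here. Low read numbers limit H3K4me3 and H3K27ac in cKO, where the smallest promoter count was 4 reads at Nphp4.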
